A study of Mus musculus with 4 samples.

Results

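The genes described here encode the constitutive proteasome and the proteins that assemble, cap or regulate it. Members were taken by symbol, as every entry beginning with Psma to Psmg followed by a digit, leaving out the immunoproteasome genes Psmb8, Psmb9 and Psmb10. The rule gave 45 genes of 21827 entries, and it uses names only, not measured values. Of the 45, 13 encode the core particle, 17 the regulatory particle, 7 assembly chaperones, 4 activators and 1 an inhibitor, 2 are tissue-specific core subunits, and 1, Psmc3ip, shares only the symbol. Psmb5, a catalytic core subunit, was not analysed here. Adrm1 in the base and Shfm1 in the lid are regulatory subunits too, but their names fall outside the rule. Statements on the regulatory particle, base and lid are about the 17 genes with Psm names unless these 2 are named. Liver RNA of untreated male CD-1 mice was compared with that of untreated females, all 8 weeks old. CD-1 is an outbred stock, supplied here by Charles River. RNA of 12 livers per sex was combined into 2 pools of 6 livers, and the 4 pools were sequenced as poly-A-enriched, strand-specific libraries. The comparison addresses which genes differ between male and female liver.

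The proteasome is the main protease of the cytosol and nucleus. Its core particle is a barrel of stacked rings, in which outer rings of alpha subunits gate the entrance and inner rings of beta subunits carry the cutting sites. The regulatory particle caps the barrel: its base holds a ring of ATPases that unfolds the substrate and threads it into the core, and its lid removes the ubiquitin chain that marked the substrate. Each subunit of a particle is present in the same number of copies, dedicated chaperones assemble the core and the base, and liver uses the system for the turnover of metabolic enzymes and damaged proteins.

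Each gene has 1 level per sex, the authors' log2 RPKM (reads per kilobase, scaled to the depth of the library) over the 2 pools of that sex, so the spread between pools could not be computed. The ratio is male over female on the log2 scale as normalized by the authors, where a value below 0 means a higher level in female liver, and a gene was called different at the authors' adjusted p under 0.05. How their test used the pools is not known from the sources used here, and p-values can cover only the spread between those pools. Of all entries, 13763 had a ratio and are called the compared genes, 6590 sat on the lowest value of the scale (its floor) in male and female liver alike, 1460 did so in 1 sex and 14 had no level. If the floor stands for 1 read, the depth behind the levels is 11239946 reads for male and 14717080 reads for female liver, and counts derived from it are called implied reads. Hepatocyte markers (Alb, Apoa1, Ttr, Tat and Cps1) summed to 42239 RPKM in male and 58728 RPKM in female liver, so the defining markers of the labelled tissue were present. Of the 5 ratios, 4 were below 0, and the called markers disagreed. Alb was called higher in female liver (29025 RPKM in male and 46923 RPKM in female). Apoa1 was called higher in male liver (6558 and 4351 RPKM). In whole tissue, fewer cells of a type and less RNA per cell cannot be told apart.

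Proteasome genes differed little between the sexes. Of the 45 members, 44 were compared, and 1 of the 44 (2.27%) was called in the authors' deposited table, Psmb3, higher in female liver. None was called higher in male liver. Over all compared genes, 17.4% were called, 10.2% as higher in female and 7.21% as higher in male liver, and the share was 17.2% among the 9735 compared genes that reached a log2 RPKM of 1 in male or female liver, which are called expressed genes from here on. The median size of the ratio, leaving its sign aside, was 0.15 (1.11-fold) over the 44 members and 0.20 (1.15-fold) over the expressed genes. A difference of at least 1.5-fold was shown by 2 of 44 members (4.55%), Psmb3 and Psmc3ip, and by 1271 expressed genes (13.1%). The sets differed in level: the median log2 RPKM in male and female liver was 5.42 and 5.28 for the members. It was 3.31 and 3.29 for the expressed genes, and the part of level in the sizes was not tested. The interquartile band of the expressed genes ran from -0.21 to 0.19, and 28 of 44 members lay inside it. The median ratio was 0.00 for the members and 0.00 for the expressed genes.

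**Figure D1:**
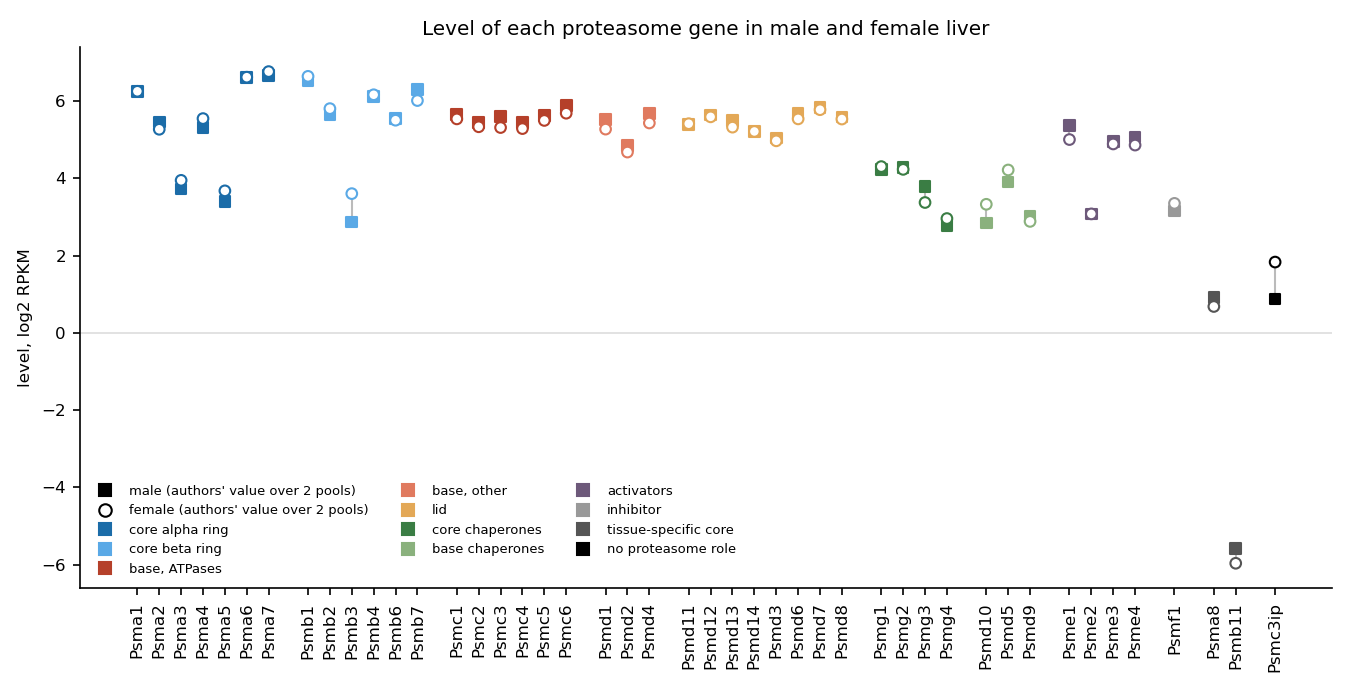
Level of each of the 45 proteasome genes in male liver (filled squares) and female liver (open circles), in log2 RPKM on the vertical axis, ordered by role; each point is the authors' value over 2 pools, and lines join the sexes. The 17 regulatory genes lie between 4.68 and 5.88, the core particle spreads from 2.87 to 6.76, and Psmb11 lies at the floor.

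The promoters of these genes are shown for a few members, because proteasome genes are known to be raised together by Nfe2l1, a transcription factor that binds antioxidant response elements. Of 45 members, 37 had a RefSeq promoter window (GRCm38.p6), and the 250 bases before the annotated start were searched on both strands. The antioxidant response element core TGACNNNGC was found in 4 of 37 members (10.8%: Psmb6, Psmc6, Psmd12 and Psmd9) and in 11.5% of the 27025 genes with a window. CCGGAAG, a sequence bound by ETS family factors, was found in 13 of 37 members (35.1%) and in 7.83% of all windows. It was present in 8 of the 14 regulatory particle windows and in 1 of the 10 core particle windows. The windows below belong to Psmb3, the called gene, and to the 3 core or regulatory members with TGACNNNGC. Each is on the plus strand and reads 5′ to 3′, and capitals mark matches to TGACNNNGC, CCGGAAG or, for Psmb3, CCAAT, on either strand.
Psmb3 (chr11:97703184-97703433): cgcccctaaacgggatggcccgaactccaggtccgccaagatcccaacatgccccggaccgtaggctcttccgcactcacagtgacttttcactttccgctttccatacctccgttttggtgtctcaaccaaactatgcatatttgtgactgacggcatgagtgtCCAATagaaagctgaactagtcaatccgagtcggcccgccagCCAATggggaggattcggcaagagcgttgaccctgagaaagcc
Psmb6 (chr11:70525107-70525356): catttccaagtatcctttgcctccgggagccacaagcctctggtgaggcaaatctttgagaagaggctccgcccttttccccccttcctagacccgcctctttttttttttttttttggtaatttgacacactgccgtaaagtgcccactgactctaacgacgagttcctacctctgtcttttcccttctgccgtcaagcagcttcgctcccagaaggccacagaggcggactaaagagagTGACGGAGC
Psmc6 (chr14:45329574-45329823): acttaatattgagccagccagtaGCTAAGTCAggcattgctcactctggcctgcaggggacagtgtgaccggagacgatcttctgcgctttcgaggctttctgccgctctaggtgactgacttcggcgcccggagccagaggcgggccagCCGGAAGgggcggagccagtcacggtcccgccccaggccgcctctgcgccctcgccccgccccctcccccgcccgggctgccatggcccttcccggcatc
Psmd12 (chr11:107479278-107479527): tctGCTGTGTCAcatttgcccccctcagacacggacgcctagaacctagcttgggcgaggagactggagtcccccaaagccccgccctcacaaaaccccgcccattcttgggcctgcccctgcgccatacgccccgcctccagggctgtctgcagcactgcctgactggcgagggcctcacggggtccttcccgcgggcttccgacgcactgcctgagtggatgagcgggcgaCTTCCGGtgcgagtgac

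The Psmb3 window held CCAAT at 85 and 43 bases before the start and neither of the other 2 sequences. In Psmb6 the TGACNNNGC match (TGACGGAGC) took the last 9 bases before the start. Psmc6 had its match on the minus strand, 227 bases before the start, and CCGGAAG at 100 bases. In Psmd12 both matches were on the minus strand, at 247 and 17 bases. CCAAT was found in 14 of 37 members (37.8%) and 37.5% of all windows, the GC box GGGCGG in 21 (56.8%) and 35.4%, and TATAAA in 3 (8.11%) and 14.3%. Of 3 further sequences, CACGTG was found in 3 members (8.11%) against 6.86% of all windows, AAGATGG in 3 (8.11%) against 5.18%, and TGACGTCA in 0 against 1.77%. The median GC content was 58.0% in the members' windows and 52.4% in all, and CCGGAAG and GGGCGG are themselves rich in G and C. A match is a stretch of letters and was not tested as a binding site.

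The alpha ring of the core particle held both the most abundant members and some of the scarcest subunit messages. None of its 7 genes was called, and 5 of 7 ratios were below 0 (median -0.16). Psma7 had the highest level of all members, at a log2 RPKM of 6.66 in male and 6.76 in female liver. Psma6 stood at 6.61 and 6.62, and Psma1 at 6.25 and 6.25. The plain difference between the sexes was 0.10 log2 RPKM for Psma7 and smaller for the other two. Psma2 stood at 5.46 in male and 5.27 in female liver, and its ratio of 0.24 was the highest of the ring (1.18-fold, adjusted p = 0.238 in the authors' deposited table). Psma4 stood at 5.31 and 5.55, with the lowest ratio of the ring (-0.23, 1.17-fold, adjusted p = 0.283 in the authors' deposited table). Psma3, at 3.72 and 3.95, and Psma5, at 3.40 and 3.68, were the low members of the ring in both sexes. All 7 genes encode subunits that the ring holds in equal number, and the highest and lowest levels lay 9.63-fold apart in male and 8.50-fold apart in female liver. Of the 36-base stretches (words) of their transcripts, Psma5 shared 61.0%, Psma3 25.1% and Psma4 34.7% with other annotated genes, and Psma7 0%. The part of such sharing in this range was not tested. Without members sharing at least 10%, a choice made after seeing the data, the median ratio of the ring was -0.04.

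The beta ring carries the proteolytic sites, of which Psmb6 (cutting after acidic residues) and Psmb7 (cutting after basic residues) were measured. Psmb3, a structural beta subunit, was the only member called. It stood at a log2 RPKM of 2.87 (7.30 RPKM) in male and 3.60 (12.2 RPKM) in female liver, a difference of 1.63-fold (log2 ratio -0.71, adjusted p = 0.0357 in the authors' deposited table). Psmb3 lies on chromosome 11, from 97564748 to 97574814 on the plus strand (mm9). Its levels imply 63 reads in male and 137 in female liver, and counting error alone gives an exact (Clopper-Pearson) 95% interval of -1.19 to -0.29 for the log2 ratio. Of the 36-base words of its transcript, 64.3% also occur in transcripts of 10 other annotated genes, so its count may include reads of copies or lack reads that match several places. At 0.01 in place of 0.05, Psmb3 was not called. Its share of shared words was the highest of the 44 compared members, and the part of such copies in the difference was not tested.

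The other 5 measured beta genes were more abundant than Psmb3 and none was called. Psmb1, a structural subunit, had the highest level of the ring, at 6.53 in male and 6.64 in female liver. Psmb7 stood at 6.31 and 6.01, and its ratio of 0.26 was the highest of the core particle (1.20-fold, adjusted p = 0.194 in the authors' deposited table). Psmb6, the other catalytic gene measured, stood at 5.55 and 5.51 (ratio 0.01, adjusted p = 0.952 in the authors' deposited table). The structural subunit genes Psmb4, at 6.12 and 6.16, and Psmb2, at 5.65 and 5.81, had ratios of -0.13 and -0.14. Of the 6 ratios 4 were below 0, with a median of -0.13.

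**Figure D2:**
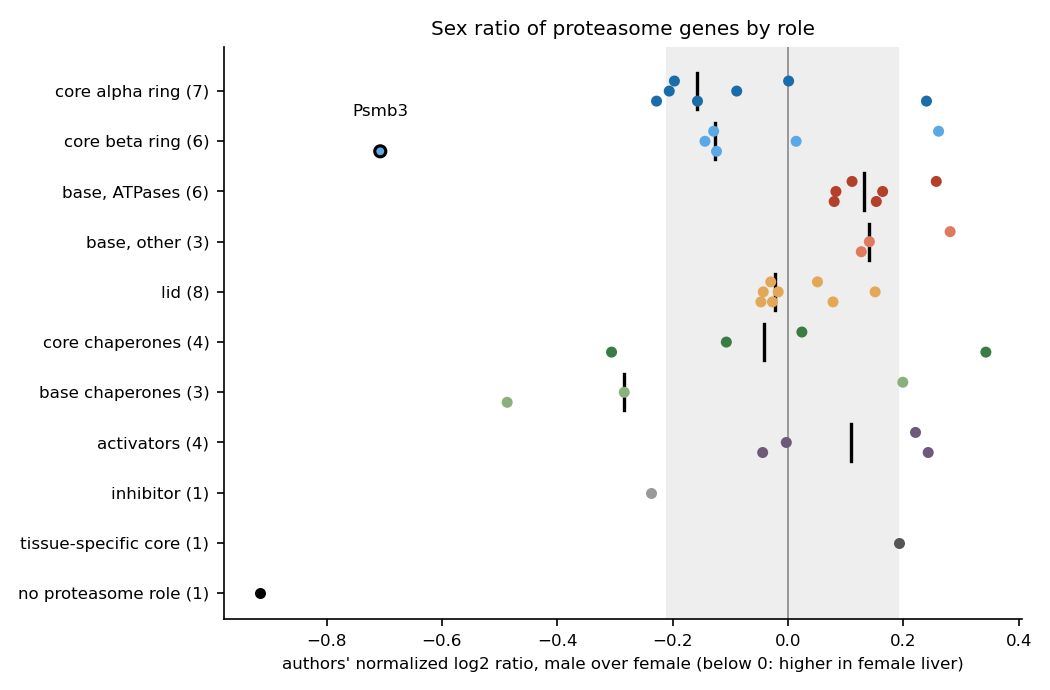
Normalized log2 ratio, male over female, for the 44 compared members, 1 point per gene, by role (number of genes in parentheses); black ticks are group medians and the grey band is the interquartile band of the 9735 expressed genes (-0.21 to 0.19). Psmb3, ringed, is the only called gene at -0.71, and all 9 base genes lie above 0.

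The 9 base genes with Psm names were narrowly spread in level and all had ratios above 0, although none was called. Adrm1, a ubiquitin receptor of the base, stood far lower, at 1.84 in male and 1.83 in female liver, with a ratio of -0.05 (adjusted p = 0.86 in the authors' deposited table). Of the 36-base words of its transcript, 81.0% also occur in another gene, and the part of that copy in its level was not tested. The 6 ATPase genes, Psmc1 to Psmc6, form the ring that unfolds substrates. Their levels ran from 5.44 to 5.88 in male liver (1.36-fold) and from 5.29 to 5.69 in female liver (1.32-fold). Psmc6 was the highest, at 5.88 and 5.69. Psmc4, at 5.44 and 5.29, was the lowest in both sexes. Psmc3, at 5.61 and 5.32, had the largest ratio of the 6 (0.26, 1.19-fold, adjusted p = 0.198 in the authors' deposited table). Psmc2, at 5.45 and 5.34, and Psmc5, at 5.63 and 5.50, had the smallest, both 0.08, and Psmc1, at 5.65 and 5.54, had 0.11. The median ratio of the 6 was 0.13.

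The other base genes encode scaffold and receptor subunits. Psmd1, a large scaffold subunit, stood at 5.53 in male and 5.27 in female liver, with the highest ratio of the 17 regulatory genes (0.28, 1.22-fold, adjusted p = 0.143 in the authors' deposited table). Psmd2, the scaffold that binds ubiquitin shuttles, stood at 4.84 and 4.68 and was the lowest of the 17 regulatory genes in both sexes, Adrm1 aside (ratio 0.14). Psmd4, a receptor for ubiquitin chains, stood at 5.68 and 5.43 (ratio 0.13). Over the 9 base genes, Adrm1 left out, the ratios ran from 0.08 to 0.28 with a median of 0.14. That is at most a 1.22-fold difference, and no adjusted p of the regulatory particle was under 0.143 in the authors' deposited table.

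The 8 lid genes with Psm names had ratios close to 0. None of the 8 was called, and the ratios ran from -0.05 to 0.15 with a median of -0.02. Psmd14, the deubiquitinase that cuts the chain off the substrate, stood at 5.21 in both male and female liver. Its partner Psmd7 had the highest level of the 8, at 5.83 and 5.78, and Psmd3 the lowest, at 5.05 and 4.97. Shfm1, a small lid subunit, stood above them all, at 6.75 and 6.93, with a ratio of -0.26 (1.19-fold, adjusted p = 0.207 in the authors' deposited table). Psmd6, at 5.68 and 5.54, had the largest ratio above 0 (0.15, 1.11-fold, adjusted p = 0.446 in the authors' deposited table). Psmd11, a scaffold subunit at 5.39 and 5.42, had the lowest ratio (-0.05, 1.03-fold, adjusted p = 0.82 in the authors' deposited table). Psmd8 (5.59 and 5.54), Psmd12 (5.64 and 5.59) and Psmd13 (5.50 and 5.33), all structural lid genes, had ratios of -0.04, -0.02 and 0.08. Of the 8 ratios, 3 were above 0, but 6 were above 0 by the plain difference of the log2 RPKM values. The sign of the lid as a group thus depends on which measure is used. Subtracting the median plain difference of the expressed genes (0.02) left 6 above 0, and the cause was not tested. With Shfm1 the counts were 3 of 9 by the ratio and 6 of 9 by the plain difference.

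Set side by side, the core genes and the 17 regulatory genes had close median levels. Which particle had the wider range from lowest to highest gene depended on Adrm1 and Shfm1. By the SD over genes, the core was more spread with or without them. The median level of the 13 core genes was 5.65 in male and 5.80 in female liver, with an SD over genes of 1.28 and 1.11. The 17 regulatory genes had medians of 5.59 and 5.42, with an SD over genes of 0.27 and 0.26. The core median thus lay 0.06 above the regulatory median in male and 0.39 above it in female liver, and the male difference turned to -0.09 with means in place of medians. The lowest and highest core genes lay 13.9-fold apart in male and 8.94-fold apart in female liver, and the 17 regulatory genes 2.05-fold and 2.14-fold apart. With Adrm1 and Shfm1 added, the 19 regulatory genes lay 30.1-fold apart in male and 34.3-fold apart in female liver. Their SD over genes was 0.94 in each, and the medians gave the same differences from the core. Adrm1, at 1.84 and 1.83, was the lowest of the 19, and 81.0% of its 36-base words also occur in another gene. In male liver the base with Adrm1 spanned 16.5-fold and the lid with Shfm1 3.26-fold. The part of shared words in the level of Adrm1 was not tested. Against the 17 genes, in male liver 6 of 13 core genes (Psma1, Psma6, Psma7, Psmb1, Psmb4 and Psmb7) lay above the regulatory range, and in female liver Psmb2 joined them. Psma3, Psma5 and Psmb3 lay below that range in both sexes. With Adrm1 and Shfm1 added, 0 of 13 core genes lay above or below the regulatory range in either sex. These are levels of RNA, and subunits share their libraries, so no test was made.

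These 3 low core genes were among those that share sequence with other annotated genes. The share of 36-base words found in another gene was 25.1% for Psma3, 61.0% for Psma5 and 64.3% for Psmb3, and 0% for Psma1, Psma6, Psma7, Psmb2 and Psmb4. Of the core genes 5 shared at least 10% of their words (the 3 above, Psma4 at 34.7% and Psmb6 at 10.2%), as did 3 regulatory genes (Psmc1 at 33.2%, Psmd2 at 39.2% and Psmd11 at 20.0%). Without these, chosen after seeing the data, the remaining 8 core genes ran from 5.46 to 6.66 in male and from 5.27 to 6.76 in female liver, and 0 lay below the range of the 14 remaining regulatory genes in male liver. The core median then lay 0.68 above the regulatory median in male and 0.82 above it in female liver. Psma4 and Psmb6, which share words as well, lay within the range of the regulatory genes, and Psmc1 stood at 5.65 in male liver. How reads matching several places were counted is not stated, and the part of sharing in these levels was not tested.

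**Figure D3:**
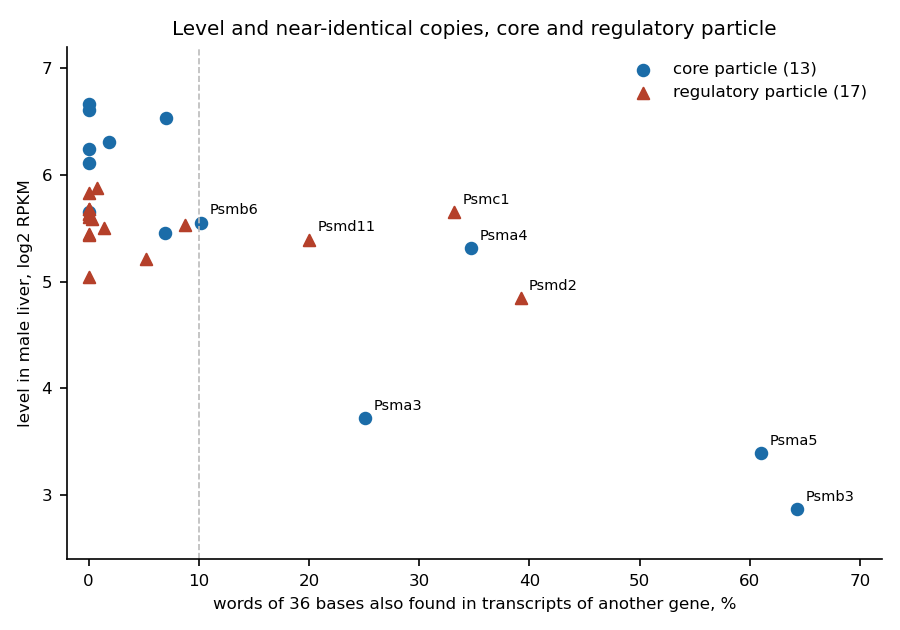
Level in male liver (log2 RPKM, vertical) against the percent of 36-base words also found in transcripts of another gene (horizontal) for 13 core genes (circles) and 17 regulatory genes (triangles), Adrm1 and Shfm1 not drawn; the dashed line marks 10%. The 3 core genes below the 17 regulatory genes, Psma3, Psma5 and Psmb3, share 25.1%, 61.0% and 64.3% of their words.

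The sex ratios of the core and regulatory particles lay on opposite sides of 0 by small amounts. The median was -0.13 for the core, with 9 of 13 ratios below 0, and 0.08 for the regulatory particle, with 12 of 17 above 0 (12 of 19 with Adrm1 and Shfm1, the median again 0.08). By the plain difference of levels, 3 of 13 core and 15 of 17 regulatory genes were above 0. Of the core genes, 9 of 13 lay below the lowest of the 17 regulatory ratios (Psma1, Psma3, Psma4, Psma5, Psma7, Psmb1, Psmb2, Psmb3 and Psmb4), and 0 lay above the highest. With Shfm1 counted in the regulatory particle, 1 of 13, Psmb3, lay below the lowest. Of the 9 only Psmb3 was called, so for the other genes the difference between the sexes did not pass the authors' test. Without the members that share words, 5 of 8 core and 4 of 14 regulatory ratios were below 0. Among the 17 genes, 7 of 8 lid ratios lay below the lowest base ratio, Psmd6 being the exception. With Adrm1 in the base this no longer holds, since its ratio is -0.05.

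Transcript length moved with the ratio over all genes and differed between the particles. The median transcript length was 1165 bases for the core, 1636 for the base, 1742 for the lid and 2760 for the expressed genes. Among expressed genes the median ratio was -0.08 under 1000 bases (705 genes), -0.06 from 1000 to 1500 bases (1016 genes) and -0.04 from 1500 to 2000 bases (1280 genes). It was -0.02 from 2000 to 3000 and from 3000 to 4000 bases, and 0.06 from 4000 bases (2605 genes). Under 1000 bases, 5 core genes had a median ratio of -0.14 and there was no regulatory gene. From 1000 to 1500 bases, 5 core genes had a median ratio of -0.13 and 4 regulatory genes one of 0.14. From 1500 to 2000 bases, 2 core genes had -0.16 and 8 regulatory genes 0.03. From 2000 to 3000 bases the order was the other way, with 0.24 for 1 core gene and 0.10 for 4 regulatory genes. These classes hold few genes, and the part of length in the ratios of the particles was not tested.

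**Figure D4:**
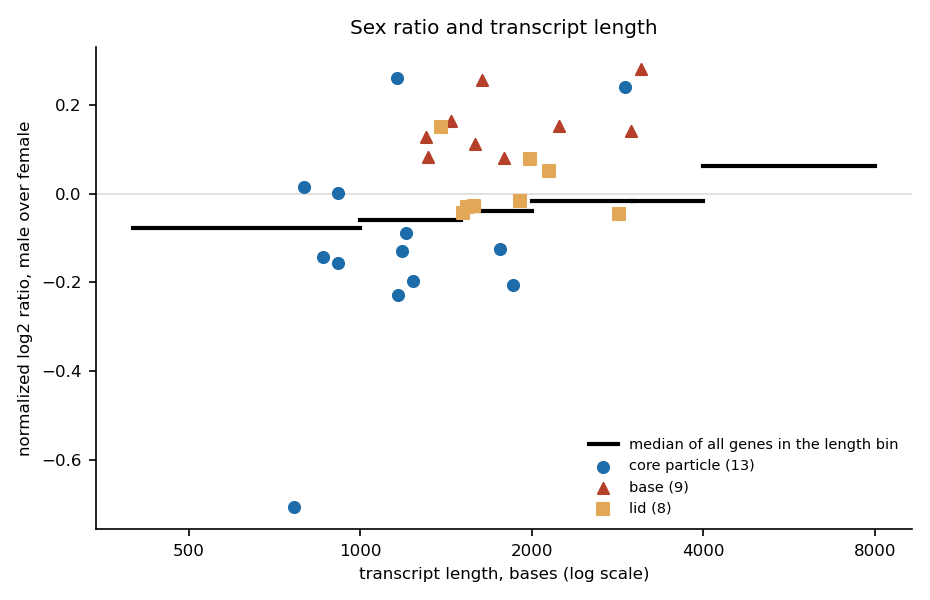
Normalized log2 ratio, male over female (vertical), against transcript length in bases (horizontal, log scale) for core (circles), base (triangles) and lid genes (squares); black lines are medians of all expressed genes per length class, with arbitrary outer ends for the first and the last class. The medians go from -0.08 under 1000 bases to 0.06 from 4000 bases, and the 9 base genes drawn lie above the median of their class.

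The 7 assembly chaperones with Psm names had lower levels than most subunits, and none of the 7 was called. Pomp, a core chaperone whose name falls outside the rule, stood higher, at 7.09 in male and 7.14 in female liver. The median level of the 4 core chaperones with Psm names was 4.01 in male liver, against 5.65 for the core. Psmg1 stood at 4.24 and 4.30, and Psmg2, its partner on the alpha ring, at 4.28 and 4.23. Psmg3, partner of Psmg4, stood at 3.79 and 3.37 and had the largest ratio above 0 of all members (0.34, 1.27-fold, adjusted p = 0.235 in the authors' deposited table). Psmg4, at 2.79 and 2.96, had a ratio of -0.31 (1.24-fold, adjusted p = 0.223 in the authors' deposited table). The partners Psmg3 and Psmg4 thus had ratios of opposite sign, neither of which passed the test. Psmg3 shared 23.0% of its words with other genes and Psmg4 none, and their implied reads were 137 and 43 in male liver.

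Of the chaperones of the base, Psmd10 (gankyrin), encoded on the X chromosome, had the lowest adjusted p after Psmb3. It stood at 2.85 in male and 3.33 in female liver (log2 ratio -0.49, 1.40-fold, adjusted p = 0.0669 in the authors' deposited table). Its implied reads were 112 and 205, and counting error alone gives a 95% interval of -0.83 to -0.14. Psmd5 stood at 3.90 and 4.22 (ratio -0.28, adjusted p = 0.206 in the authors' deposited table), and Psmd9 at 3.01 and 2.89 (ratio 0.20, adjusted p = 0.34 in the authors' deposited table). All 3 lay below the 17 regulatory genes in both sexes. The median level in female liver was 3.33 for the base chaperones and 5.33 for the base itself.

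The activators cap the core in place of, or beside, the regulatory particle. Psme1 and Psme2 encode the partners of the interferon-inducible activator ring. Psme1 stood at 41.1 RPKM in male and 32.1 RPKM in female liver (log2 ratio 0.24, 1.18-fold, adjusted p = 0.284 in the authors' deposited table), and Psme2 at 8.46 and 8.45 RPKM. The levels of these partners were far apart, and 61.4% of the words of Psme2 occur in another gene. Psme3, the nuclear activator, stood at 4.95 and 4.89 log2 RPKM (ratio 0.00), and Psme4, a large activator, at 5.07 and 4.86 (ratio 0.22, 1.17-fold, adjusted p = 0.245 in the authors' deposited table). Psmf1, an inhibitor of the core, stood at 3.15 and 3.35 (ratio -0.24, 1.18-fold, adjusted p = 0.265 in the authors' deposited table). None of the 5 genes was called.

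The tissue-specific core subunits were low or at the floor in liver. Psmb11, the thymus subunit, was at the floor in male and female liver, as was Foxn1, a marker of thymic epithelium. Psma8, the testis form of an alpha subunit, stood at a log2 RPKM of 0.92 in male and 0.68 in female liver, on 36 and 40 implied reads (adjusted p = 0.757 in the authors' deposited table). The germ cell marker Ddx4 was at the floor in both, and Sycp3 stood at -0.66 in male liver and at the floor in female liver. Psmc3ip, which shares the symbol but acts in meiotic recombination, stood at 0.87 in male and 1.83 in female liver. Its difference was the largest of all members by size (1.89-fold) and was not called (adjusted p = 0.177 in the authors' deposited table), on 27 and 68 implied reads.

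Depth limits how fine a difference could be seen. Implied reads could be given for 33 of the 44 compared members, with a median of 703 reads in male and 842 in female liver, from 27 and 40 upward. The 95% counting interval had a median width of 0.29 on the log2 scale, from 0.16 to 1.37 for single genes. For 14 of 33 genes it lay wholly on 1 side of 0. It covers counting error only, not differences between mice or pools, and uses implied depth in place of the authors' normalization.

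The immunoproteasome genes left out by the rule replace the catalytic core subunits in immune cells and under interferon. Psmb10 was called higher in female liver, at 11.3 RPKM in male and 16.0 RPKM in female liver, or 166 and 308 implied reads (1.46-fold, adjusted p = 0.0198 in the authors' deposited table). Psmb9 stood at 3.62 and 3.96 log2 RPKM (1.36-fold higher in female liver, adjusted p = 0.0538 in the authors' deposited table). The entry with the RefSeq accession of Psmb8, listed under the symbol Gm20496, stood at 4.37 and 4.52 (ratio -0.20, adjusted p = 0.372 in the authors' deposited table). Psmb10 replaces Psmb7, whose level was 6.31 and 6.01 and whose ratio was 0.26. Whether these ratios differ could not be tested with 1 value per sex. Macrophage markers (Emr1, Clec4f, Cd68, Csf1r and Marco) summed to 73.9 RPKM in male and 99.1 RPKM in female liver, with all 5 ratios below 0 and 2 of 5 called, Marco and Clec4f. Lymphocyte markers summed to 5.02 and 6.45 RPKM, with 3 of 5 ratios below 0. Ptprc, in that list but present on all leukocytes, was 1.45-fold higher in female liver (adjusted p = 0.0164 in the authors' deposited table). Irf1, an interferon-response gene, was called 1.37-fold higher in female liver (adjusted p = 0.0287 in the authors' deposited table), whereas Tap1 and Gbp2, also of that response, were not called (adjusted p = 0.417 and 0.0564 in the authors' deposited table). The part of these cells and of interferon in the ratios of Psmb10, Psmb9 and Psmb3 was not tested.

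Genes of the wider pathway, with names outside the rule, also differed little between the sexes. Of 29 listed, 27 were compared; Paaf1 and Ddi2 were not analysed here. Ubqln4, a ubiquitin shuttle, was the only called gene of the 27, whereas 17.4% of all compared genes were called. It stood at 3.75 in male and 4.10 in female liver (1.39-fold higher in female, adjusted p = 0.0188 in the authors' deposited table). The median ratio of the 27 was 0.01, from -0.47 to 0.30. The core chaperone Pomp had a higher level than any member, at 7.09 and 7.14 (adjusted p = 0.699 in the authors' deposited table). Shfm1 and Adrm1, given with the lid and base, are among the 27. AI314180 (Ecm29), which binds core and regulatory particle, stood at 6.58 and 6.37, and the shuttle Ubqln1 at 6.14 and 6.09. The transcription factor gene Nfe2l1 stood at 4.93 and 4.97 (adjusted p = 0.799 in the authors' deposited table), and Nfe2l2, its relative, at 5.13 and 5.22 (adjusted p = 0.441 in the authors' deposited table).

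Other large complexes gave a scale for these ranges. In male liver the chaperonin genes (7 compared) lay within 2.16-fold of each other, near the 2.05-fold of the 17 regulatory genes. With Adrm1 and Shfm1 the regulatory range became 30.1-fold, and its lowest gene was Adrm1, with 81.0% of its words shared with another gene. The COP9 signalosome, a relative of the lid (9 genes), ran from 0.57 to 5.89 log2 RPKM (40.0-fold), and initiation factor 3, another relative (13 genes), from 1.71 to 5.76 (16.6-fold). Cytosolic ribosomal protein genes (59 compared) ran from -2.88 to 7.46 and are known for many processed copies. The median sex ratio was -0.01 for the signalosome, 0.07 for initiation factor 3 and 0.02 for the chaperonin, and -0.22 for the ribosomal genes, of which 42 of 59 ratios were below 0. Calls numbered 0 of 9, 0 of 13, 1 of 7 and 9 of 59, 3 of the 9 being higher in male liver. The share called over all compared genes was 17.4%. Initiation factor 3 had 11 of 13 ratios above 0, a run of small ratios on 1 side outside the proteasome.

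**Figure D5:**
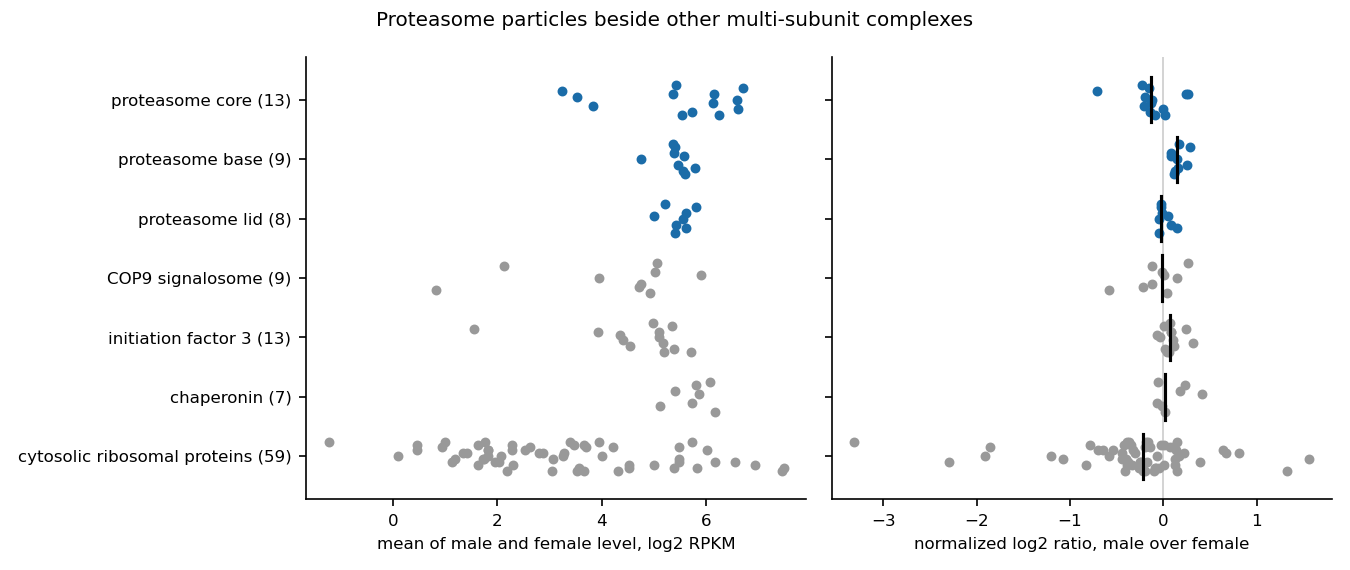
Left, mean of male and female level in log2 RPKM; right, normalized log2 ratio, male over female, 1 point per gene, for core, base and lid (blue) and 4 other complexes (grey), with medians of the ratio as black ticks and numbers of genes in parentheses. Base and lid, drawn without Adrm1 and Shfm1, are tightly grouped in level, and the core median of -0.13 lies between those of the lid (-0.02) and the ribosomal genes (-0.22).

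In the genome the members are scattered, with 9 on chromosome 11, 6 on chromosome 2, 5 on chromosome 14 and 4 on chromosome 7. Of 45 members 7 (15.6%) start head to head with another gene within 1000 bases, against 9.72% of all entries. These pairs are Psma2 with Mrpl32 (217 bases apart), Psma7 with Ss18l1 (76), Psmc2 with Dnajc2 (118), Psmd10 with Atg4a (206), Psmd13 with Sirt3 (95), Psme2 with Rnf31 (763) and Psmg2 with Cep76 (263). No member overlaps an entry on its own strand. Psma3, Psma4, Psma5, Psmb7, Psmc3, Psmc3ip, Psmd1 and Psme1 overlap an entry on the opposite strand. The libraries kept strand, but whether the counting used it is not stated, so reads of these 8 genes and of their partners may not be separated.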

How the data were processed

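Poly-A-enriched, strand-specific RNA of 4 liver pools was sequenced, per the labels' protocols. The submitters' processing notes name Bowtie, edgeR and mm9, without versions or roles; read counting, strand use and the adjustment are not given in the sources used here. Per the file headers, the authors deposited log2 RPKM per sex, a normalized log2 ratio, a linear ratio, a signed fold change (a score, negative where female is higher), an adjusted p-value and a flag for expressed genes.

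With 1 value per sex nothing was tested anew. Genes at the floor carry an adjusted p of 0.026 in the authors' deposited table, which was disregarded. The summed level of the interferon-response list is not reported here. The 45 members and all gene lists were chosen with earlier results of these data known. Every member is named; of the outside list, called genes and up to 4 of the highest level, with Adrm1, Nfe2l1 and Nfe2l2 added after their values were seen.

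Transcripts, lengths and promoters came from GENCODE vM21 and RefSeq (GRCm38), and gene coordinates from the table (mm9). Of 4668 floor genes, 74.2% had an implied length within 2% of the transcript's. Implied reads are approximate and given only where the entry's RefSeq transcript had a single length. Members were not checked for a match between that length and the one behind their RPKM. Window ends lay in a transcript for 36 of 37 members. Endothelial, stellate and cholangiocyte markers summed to 51.9, 18.6 and 2.42 RPKM in male and 59.3, 24.3 and 3.43 RPKM in female liver. The markers of a list did not all go the same way. Ratios below 0 numbered 3 of 4, 2 of 3 and 2 of 3, with 1 marker called in each list, higher in female liver. Sorting of genes, word sharing and motif search were tested on simulated data (Python 3.11.15, pandas 2.3.3, NumPy 2.4.6, SciPy 1.17.1, matplotlib 3.10.9).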

Additional observations from a re-analysis of the deposited data

How the results depend on the processing

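Over 14 counts, medians and differences of medians, 65 of 74 alternatives moved the value by less than 0.1 on the log2 scale or left the count as it was, and 9 moved it further. Some of the 65 could not have moved. The log2 RPKM limit of 1 left out no gene from any group median. A count of 0 members called higher in male liver cannot rise at a stricter limit or among fewer members. No base chaperone shared 10% of its words, so leaving out such members changed nothing there. The 65 is therefore no measure of robustness. Alternatives that leave out members sharing at least 10% of 36-base words with another gene, or that add Adrm1 and Shfm1 to ranges and ratios of the regulatory particle, were chosen after seeing the data. Members called higher in female liver numbered 0 at an adjusted p under 0.01 in the authors' deposited table, and 0 without the members that share words, in place of 1. Without those members the alpha ring median ratio was -0.04, and the core median level lay 0.68 above the regulatory median in male and 0.82 above it in female liver. With means in place of medians these level differences were -0.09 and 0.15. With Adrm1 and Shfm1 added to the regulatory particle they stayed at 0.06 and 0.39, but the range of that particle in male liver went from 2.05-fold to 30.1-fold. With Psma8 and Psmb11 added to the core they were -0.03 and 0.13. By the plain difference of levels, the median of Psmd1, Psmd2 and Psmd4 was 0.25, and that of the lid turned from -0.02 to 0.05. The cause was not tested. No paired analysis was possible because the table gives 1 value per sex and the titles carry no shared replicate number (1 and 2 were given to the pools of each sex in accession order and pair nothing). Count tests per pool and leaving out a pool were not run, for the same reason. Depth limits Psmc3ip, Psma8, Psmg4 and Psmb3 most, at 27, 36, 43 and 63 implied reads in male liver.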
